A study of Mus musculus with 2 samples.

Results

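The genes described are 10 histone genes whose products package DNA into chromatin: 6 linker histone genes (H1f0, Hist1h1a, Hist1h1b, Hist1h1c, Hist1h1d and Hist1h1e) and 4 variant core histone genes (H2afz, H2afx, H2afy and H3f3b). They were taken by symbol out of 27998 genes in the count matrices, and were chosen with earlier results of these data known. Single cells of embryonic pancreas from C57BL/6 mice at embryonic day 18.5 were profiled in 2 libraries: 1 control pancreas, whose genotype the labels do not give further, and 1 Dpy30∆P pancreas. Dpy30 encodes a core subunit of the Trithorax-group complexes that methylate lysine 4 of histone H3. The series title sets the question of how the catalytic and other activities of these complexes act in pancreas progenitors. The labels name neither the Dpy30 allele nor the Cre driver behind ∆P.

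Linker histones sit on the DNA that enters and leaves the nucleosome and help to fold chromatin. The Hist1h1 genes are the somatic replication-dependent subtypes, transcribed mainly in S phase, and many of their transcripts end in a stem-loop instead of a poly(A) tail. H1f0 encodes H1.0, a subtype known for building up in cells that have left the cycle. H2afz, H2afx, H2afy and H3f3b encode H2A.Z, H2A.X, macroH2A1 and H3.3, which are deposited outside or alongside replication by their own chaperones. The libraries were made with the Chromium Single Cell 3′ v2 kit, which primes on poly(A) tails, so a transcript without a tail is under-represented and a UMI (a unique molecular identifier, 1 captured molecule) counts mainly the tailed form.

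The sequences below show how the Hist1h1 genes resemble one another and where they differ from the other members. All 5 Hist1h1 genes have a single exon in the GENCODE annotation (GRCm38) and lie on chromosome 13: Hist1h1b at chr13:21779883-21780625 (minus strand), Hist1h1d at chr13:23553262-23560686 (plus), Hist1h1e at chr13:23620629-23622558 (minus), Hist1h1c at chr13:23738808-23740367 (plus) and Hist1h1a at chr13:23763666-23764406 (plus). H1f0 is a single-exon gene at chr15:79028450-79030504 (plus), H2afx a single-exon gene at chr9:44334694-44336077 (plus), H2afz a 5-exon gene at chr3:137864487-137866922 (plus), H2afy a 9-exon gene at chr13:56073619-56136361 (minus) and H3f3b a 6-exon gene at chr11:116021912-116027962 (minus). A promoter sequence was matched for 9 of the 10 members in a RefSeq table (GRCm38.p6). The 150 bases before the start site are printed for 6 members, 5′ to 3′ in the direction of the gene, for 4 Hist1h1 genes, among them Hist1h1a with too few UMIs for any ratio between cycling states, and for H2afz and H1f0, with CCAAT (or ATTGG on the other strand), TATAAA (or TTTATA) and the H1 box AAACACA (or TGTGTTT) in capitals.
Hist1h1a, chr13:23763518-23763667, plus strand: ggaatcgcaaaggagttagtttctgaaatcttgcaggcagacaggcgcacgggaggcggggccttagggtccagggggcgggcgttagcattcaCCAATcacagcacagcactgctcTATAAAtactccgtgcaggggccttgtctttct
Hist1h1b, chr13:21780626-21780775, minus strand: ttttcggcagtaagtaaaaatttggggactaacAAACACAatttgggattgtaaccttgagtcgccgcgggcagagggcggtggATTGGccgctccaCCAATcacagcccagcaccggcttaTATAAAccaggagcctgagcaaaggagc
Hist1h1c, chr13:23738657-23738806, plus strand: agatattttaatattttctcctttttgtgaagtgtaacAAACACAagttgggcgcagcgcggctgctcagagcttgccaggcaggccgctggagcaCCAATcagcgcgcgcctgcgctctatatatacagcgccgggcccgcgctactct
Hist1h1e, chr13:23622559-23622708, minus strand: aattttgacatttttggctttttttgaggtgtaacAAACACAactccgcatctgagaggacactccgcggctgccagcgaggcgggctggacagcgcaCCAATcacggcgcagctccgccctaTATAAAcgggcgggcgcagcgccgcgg
H2afz, chr3:137864337-137864486, plus strand: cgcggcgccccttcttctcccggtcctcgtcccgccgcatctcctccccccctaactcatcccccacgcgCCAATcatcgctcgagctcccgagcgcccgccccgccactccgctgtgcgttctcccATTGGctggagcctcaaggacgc
H1f0, chr15:79028062-79028211, plus strand: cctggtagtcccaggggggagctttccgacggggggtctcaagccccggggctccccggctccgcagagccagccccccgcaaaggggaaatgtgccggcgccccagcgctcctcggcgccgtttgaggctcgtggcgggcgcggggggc

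The H1 box, a short element known from linker histone promoters, was found in 4 of the 9 windows (Hist1h1b, Hist1h1c, Hist1h1d and Hist1h1e), against 3.53% of 32851 promoter windows of the same length. CCAAT was found in 7 of 9 (24.5% of all windows) and TATAAA in 5 of 9 (7.57%). CCAAT stood in all 5 Hist1h1 windows, and TATAAA in 4 of the 5: Hist1h1c had the H1 box and CCAAT without TATAAA. Each motif was searched on both strands, and no searched motif overlaps another in the printed windows. TTTGAA and GCGGGAA, in neither of which a member had a match, stood in 9.07% and 2.59% of all windows, and TGACG, found in H3f3b alone, in 13.3%. H1f0 and H2afy had none of the 6 motifs in these windows. These matches describe letters in a window and are not measured sites. The windows follow RefSeq start sites, which for some members lie away from the GENCODE gene starts. The H1f0 window ends at chr15:79028211, before the GENCODE start at 79028450. The windows of Hist1h1d, H2afy and H3f3b lie inside the GENCODE genes. Bases next to those GENCODE starts were not searched, so a motif missing here may still be present there.

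A second sequence bears on what the kit can capture. The stem-loop at the end of replication-dependent histone transcripts was searched in the annotated transcripts, and was found in 4 members. The search used a letter pattern that left some positions open and did not test that the stem pairs. It is printed 5′ to 3′ on the transcript strand, in DNA letters.
Hist1h1c, Hist1h1d and Hist1h1e: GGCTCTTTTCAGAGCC
H2afx: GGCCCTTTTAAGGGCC
A match of this kind was found in 68 of 21877 protein-coding genes (0.311%). In these 4 members the annotated transcript runs on past the hairpin, by 840 bases in Hist1h1c, 4884 in Hist1h1d, 1153 in Hist1h1e and 822 in H2afx. The annotated transcripts of Hist1h1a and Hist1h1b, of 741 and 743 bases, held no match. Counts of Hist1h1e carry a further limit: of 451 stretches of 50 bases in the last 500 bases of its transcript, 447 (99.1%) also lie in transcripts of Hist1h2be or Gm11398, which overlap it, whereas the other 9 members shared none. Reads from the end of Hist1h1e can therefore not be told apart from reads of those genes, and each Hist1h1e value below carries that uncertainty.

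The control library held 3986 barcodes and 25398522 UMIs, and the library labelled knockout 4779 barcodes and 33048640 UMIs. Cells with at least 500 detected genes, at most 10% mitochondrial UMIs and no doublet call numbered 2607 (median 6828 UMIs) and 3228 (median 6628.5 UMIs). The libraries shared 27 barcodes, 12 of them among the kept cells. They came from embryos of different sex by their counts, with 1 and 48052 UMIs of Xist and 1624 and 0 of Ddx3y. Given as UMIs per 1000000 (CPM), Dpy30 stood at 129 in ductal-like and 156 in endocrine-like control cells, and at 154 and 353 in those of the library labelled knockout. These 3′ tags do not show the deletion, because the labels do not place the deleted part, and the label was therefore not checked by the counts. With 1 library a group no test of the knockout is possible: intervals below cover counting error only, and no p-value is given.

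Cells were clustered without histone and cell cycle genes, and 9 classes were named from marker genes and are called by that name with "-like" understood. All 27 markers checked were higher in their own class than in the other named cells in both libraries, by 2.27-fold at least. These markers came from the lists that named the classes, so this result was largely set in advance and is no separate check. The control library and the library labelled knockout held 103 and 740 acinar, 549 and 408 ductal, 61 and 78 endocrine progenitor, 309 and 158 endocrine, 962 and 1246 mesenchymal, 215 and 187 mesothelial, 88 and 42 pericyte or smooth muscle, 178 and 119 endothelial, and 86 and 108 macrophage or myeloid cells. A cluster of 438 acinar cells led by Reg1 came from the library labelled knockout alone. Each cell was also placed by thinning it to 2000 UMIs and counting 39 S phase and 46 G2 and M phase genes (of lists of 39 and 47, 1 of the latter having no match in the matrices), none of them a histone gene: low cells had at most 1 UMI of each list, S-high cells at least 3 of the S list, and G2M-high cells at least 3 of the other list and more than of the S list. The control library held 1246 low, 529 S-high and 375 G2M-high cells, the library labelled knockout 1631, 600 and 446. In all, 565 and 648 cells had 2 or 3 list UMIs, at the edge of a state. Median depth rose with the state, from 6247.5 UMIs in low to 7793 in S-high and 8804 in G2M-high control cells.

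H3f3b had most UMIs of the 10 genes (118126 over both libraries), followed by H2afz (45223), H1f0 (22676), Hist1h1c (7281), H2afx (7004), H2afy (5792), Hist1h1e (2507) and Hist1h1b (1549). Hist1h1a and Hist1h1d had 147 and 100 UMIs in all. These totals are not corrected for length or capture and are no order of abundance between genes. Hist1h1a reached the minimum of 50 UMIs for a ratio in 1 class, mesenchymal, and Hist1h1d in none. Their levels stayed at or under 10.4 CPM for Hist1h1a, in control pericytes, and 5.85 CPM for Hist1h1d, in endocrine progenitors of the library labelled knockout.

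**Figure D1:**
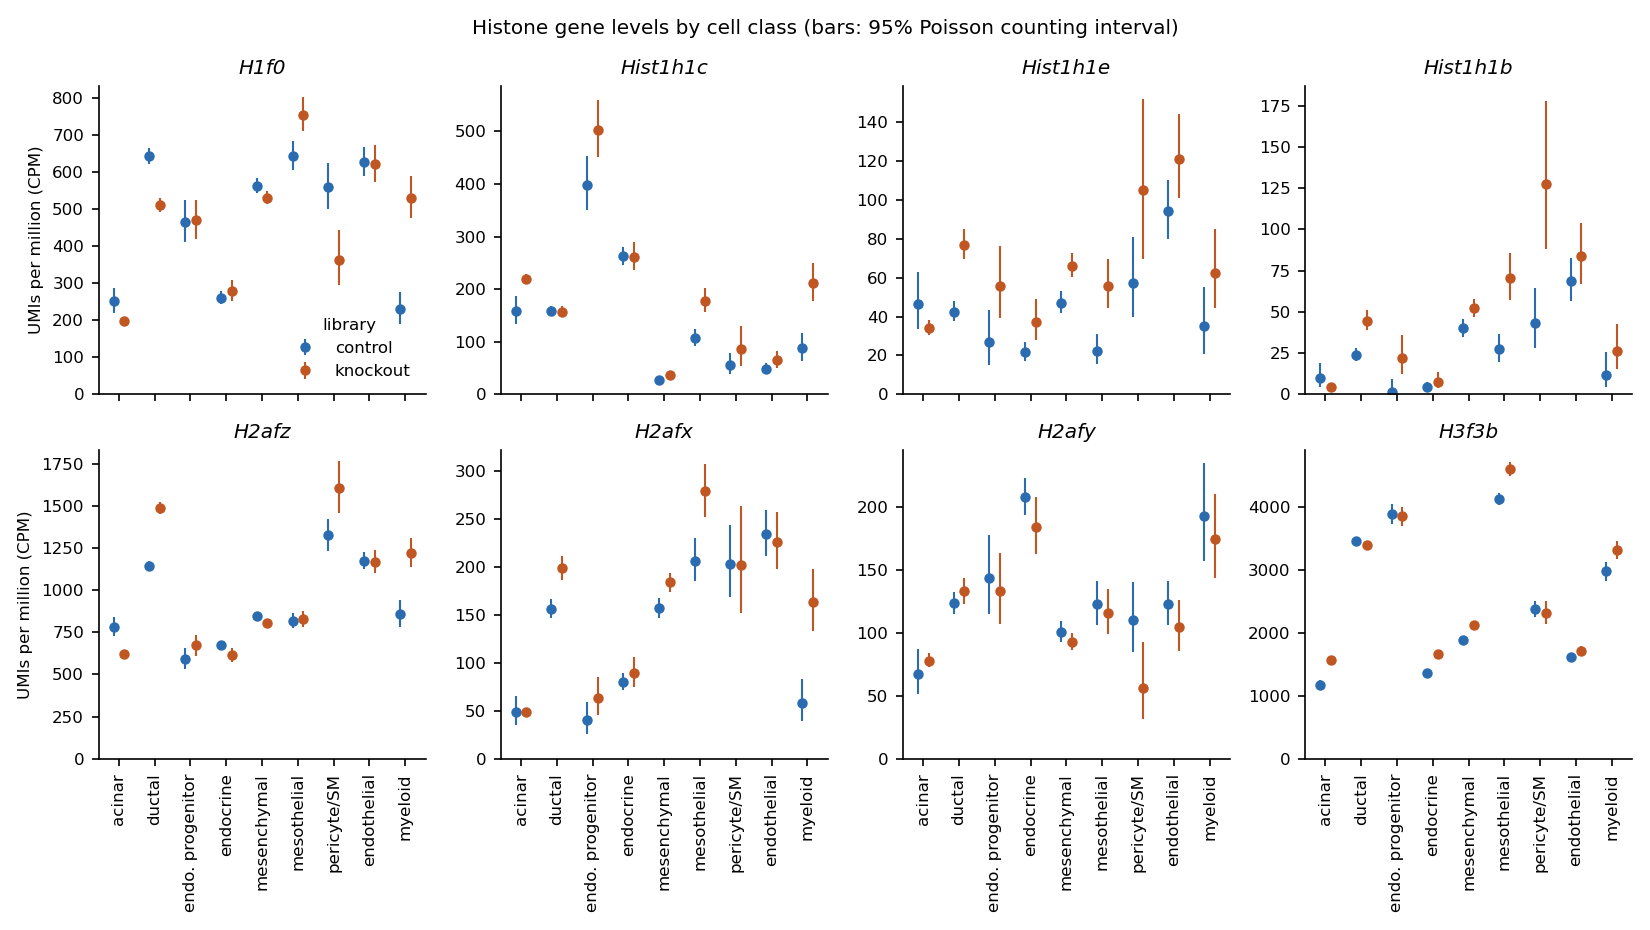
Level in CPM of 8 histone genes in 9 cell classes, control library in blue and library labelled knockout in orange; bars are 95% Poisson counting intervals of 1 library each. Hist1h1c peaked in endocrine progenitors, at 399 and 504 CPM, and H3f3b in mesothelial cells, at 4123 and 4601 CPM.

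Among the linker genes, H1f0 and Hist1h1c differed in where they were high. H1f0 was highest in mesothelial cells, at 644 CPM (control) and 755 CPM (library labelled knockout), and ductal (643 and 511 CPM), endothelial (627 and 622 CPM) and mesenchymal cells (563 and 531 CPM) followed in the control library. It was low in acinar cells, at 251 and 198 CPM, and in endocrine cells, at 261 and 279 CPM. Myeloid cells were the lowest class in the control library, at 230 CPM, but not in the other, at 531 CPM, where ductal cells came below endothelial, myeloid and mesenchymal cells. In the control library 6 of the 8 pairs of neighbouring classes in the order of H1f0 had overlapping counting intervals, mesothelial and ductal among them. Acinar levels are shares of a total filled by digestive enzymes: 65.3% of all measured genes were over 1.5-fold higher in ductal than in acinar control cells, where H1f0 was 2.56-fold higher.

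Hist1h1c, which encodes H1.2, was highest in the endocrine branch. It stood at 399 and 504 CPM in endocrine progenitors, marked by Neurog3, at 263 and 262 CPM in endocrine cells and at 158 and 157 CPM in ductal cells. Mesenchymal cells had the lowest level, 27.1 and 36.5 CPM. Endocrine progenitors thus had 14.7-fold (counting interval 11.98 to 18.1) more than mesenchymal cells in the control library, and 13.8-fold (11.7 to 16.2) in the other, against 31.1% and 31.9% of all measured genes over 1.5-fold higher in that comparison. The gap was there among low cells alone, at 16.4-fold and 15.6-fold. Progenitors also exceeded their neighbours on either side of differentiation, ductal cells by 2.52-fold (2.18 to 2.91) and endocrine cells by 1.52-fold (1.31 to 1.75) in the control library. Of all measured genes, 16.8% and 35.5% were over 1.5-fold higher in progenitors in those comparisons. The step from progenitors to endocrine cells depended on the endocrine cluster. The cluster of mixed Gcg and Sst cells had 454 CPM (413 to 497) in the control library, above the 399 CPM (350 to 453) of the progenitors with overlapping intervals, and 332 CPM in the other library, under the progenitors' 504 CPM. The Ins2 cluster had 193 and 173 CPM, under the progenitors in both.

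The makeup of the linker pool followed from these levels. Of all linker histone UMIs, H1f0 made up 82.5% in mesenchymal cells of the control library and 47.3% in endocrine cells, and Hist1h1c made up 3.97% and 47.7%. Hist1h1b and Hist1h1e, encoding H1.5 and H1.4, gave their largest shares of the control library in endothelium, 8.15% and 11.2%. In the control library the summed level of the 6 genes ran from 366 CPM in myeloid cells to 893 CPM in endocrine progenitors. Neither end was the same in the library labelled knockout. There the sum ran from 457 CPM in acinar to 1068 CPM in mesothelial cells, with myeloid cells at 833 CPM. In both libraries the counting interval of the highest class overlapped that of the next.

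Each variant had its own order of classes. H2afz, encoding H2A.Z, reached 1327 and 1608 CPM in pericytes, 1175 and 1168 CPM in endothelium and 1143 and 1488 CPM in ductal cells, and 589 and 672 CPM in endocrine progenitors. Ductal cells thus had 1.94-fold (1.74 to 2.17) and 2.21-fold (2.01 to 2.44) more than endocrine progenitors over all cells, but among low cells the ratio was 0.739 (0.624 to 0.878) in the control library and 0.925 (0.799 to 1.07) in the other, where the interval spans 1. H2afx, encoding the H2A.X that is phosphorylated at DNA breaks, was at 235 and 227 CPM in endothelium and 207 and 279 CPM in mesothelium, and at 40.0 and 62.9 CPM in endocrine progenitors. H2afy was highest in endocrine cells, at 208 and 184 CPM, next in myeloid cells, at 193 and 174 CPM, and low in acinar cells, at 67.5 and 77.9 CPM. Among low cells H2afy was 1.86-fold (1.58 to 2.19) higher in endocrine than in ductal cells of the control library and 1.82-fold (1.43 to 2.35) in the other. H3f3b, a gene for H3.3 active in all phases, had the same order of the 9 classes in both libraries. The highest were mesothelial (4123 and 4601 CPM), endocrine progenitor (3880 and 3845), ductal (3457 and 3393) and myeloid cells (2972 and 3310). Then came pericyte, mesenchymal, endothelial (1621 and 1706), endocrine (1366 and 1664) and acinar cells (1173 and 1558). Counting intervals overlapped in 1 of the 8 pairs of neighbouring classes in the control library and in 3 of 8 in the other. Progenitors had 2.84-fold (2.70 to 2.98) more H3f3b than endocrine cells in the control library and 2.31-fold (2.19 to 2.44) in the library labelled knockout. Of all measured genes, 35.5% and 21.4% were over 1.5-fold higher in that comparison. Endocrine levels are shares of a total in which Ins2 alone stood at 157827 CPM in the control and 77788.5 CPM in the other library.

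For each member the genes with the most similar levels were sought among 5784 genes over 16 sums (8 classes in 2 libraries), by Pearson correlation of log2(CPM + 10). The points share libraries and cell composition, so the coefficients are descriptions. Hist1h1c was closest to the core histone gene Hist1h2bc (r = 0.957), then Deptor and Clcn3. H2afx was closest to Fam64a, Prc1 and Cenpf (r = 0.949 to 0.931) and H2afz to Smc4, Aurkb and Cdca8 (0.909 to 0.877), all genes of mitosis. H3f3b was closest to Hn1, Tgm2 and the stress-response gene Atf3 (0.941 to 0.917), H1f0 to Cenpq, Ddah2 and Smim11 (0.930 to 0.905) and H2afy to Rnf130, Inpp4a and Ankrd44 (0.934 to 0.903). Hist1h1b was closest to Rab13, Lsm2 and H2afx, and Hist1h1e to Hist1h1b, 1110059E24Rik and Ralgps2 with lower coefficients (0.798 to 0.753).

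Cycling state went with large differences in the level of most members. In G2M-high against low cells, 22 of 30 measured values were at least 1.5-fold higher in the control library (4 classes; 12.7% of all measured genes) and 32 of 38 in the library labelled knockout (5 classes; 16.8%). No member was called lower there in either library, against 8.52% and 8.21% of all genes. In S-high against low cells, 13 of 39 values were called higher and 3 lower in the control library (7 classes; background 8.88% and 9.68%), and 18 of 34 higher and 4 lower in the other (5 classes; background 14.1% and 6.53%). The states were set by other genes.

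**Figure D2:**
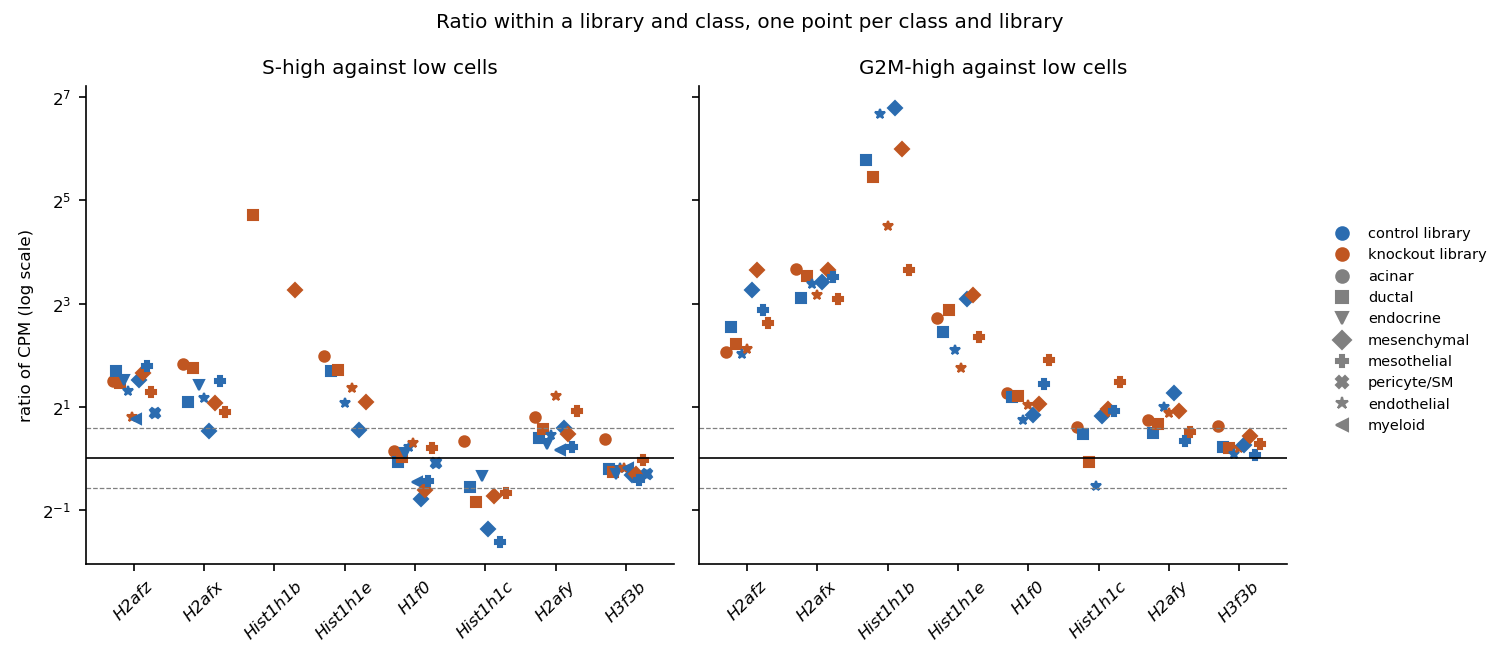
Ratio of CPM on a log scale in S-high (left) and G2M-high (right) against low cells for 8 genes; each point is 1 class in 1 library, coloured by library and shaped by class, with dashed lines at 1.5-fold either way. H2afz lies above 1.5 at every point of both panels, and Hist1h1c lies below 1 at 7 of its 8 points on the left.

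H2afz and H2afx were higher in S-high than in low cells and higher still in G2M-high cells. Control ductal cells had 391 CPM of H2afz when low, 1261 when S-high and 2284 when G2M-high, and ductal cells of the library labelled knockout 544, 1493 and 2519 CPM. H2afz was called higher at 12 of 12 S-high points, by 1.69- to 3.45-fold, and at 9 of 9 G2M-high points, by 4.07- to 12.5-fold. H2afx in control mesenchymal cells went from 57.4 CPM in low to 82.9 in S-high and 615 in G2M-high cells. Over all points its ratio ran from 1.45 to 3.55 in S-high and from 8.49 to 12.8 in G2M-high cells.

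The replication-dependent linker genes Hist1h1b and Hist1h1e moved the same way from a very low base. Hist1h1b had 2 UMIs in control ductal low cells and 92 in G2M-high cells (1.03 against 56.7 CPM, ratio 55.0, interval 14.8 to 461). Its 7 measured G2M-high ratios were all called higher, from 12.6 in mesothelial cells of the library labelled knockout to 111 in control mesenchyme. In endothelium of the library labelled knockout it had 0 UMIs in low cells and 67 in G2M-high cells, at least 22.7-fold higher against a floor of 3 counts for the low cells as a group. Hist1h1e was 14.9, 48.1 and 82.0 CPM in low, S-high and G2M-high control ductal cells and 20.5, 67.3 and 150 CPM in those of the other library. It was called higher at 6 of 7 S-high points, by up to 3.97-fold, and at 8 of 8 G2M-high points, by 3.37- to 9.001-fold. Tags in this 3′ method were thus more frequent in G2M-high than in S-high cells for both genes wherever both were measured.

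H1f0 and Hist1h1c were not called higher in S-high cells in any class, but were in G2M-high cells. H1f0 in control mesenchymal cells went from 568 CPM in low to 327 CPM in S-high and 1016 CPM in G2M-high cells, and in the library labelled knockout from 500 to 325 and 1035 CPM. The S-high ratio was called lower at these 2 of 12 points and lay between 0.727 and 1.23 at the others. In G2M-high cells H1f0 was called higher at 9 of 9 points, by 1.67- to 3.74-fold. Hist1h1c was called lower in S-high cells at 5 of 8 points, with the lowest ratio, 0.323 (0.154 to 0.613), in control mesothelium. Its one ratio above 1 was 1.26 in acinar cells of the library labelled knockout, where 24.6% of all measured genes were called higher. In G2M-high cells it was called higher at 5 of 8 points, with ratios of 0.689 in control endothelium to 2.77 in mesothelium of the library labelled knockout. In control ductal cells it had 155, 105 and 213 CPM in the low, S-high and G2M-high states.

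H2afy was above 1 at all 11 measured S-high points (median 1.39) and all 9 G2M-high points (median 1.67), and was called higher at 3 and 6 of them, by 2.39-fold at most. H3f3b had 1 call in both states together, with a median ratio of 0.847 in S-high and 1.17 in G2M-high cells. It lay below 1 at 11 of 12 S-high points, between 0.745 and 0.969, and at 1.30 in acinar cells, with no point called. In G2M-high cells it lay between 1.04 and 1.54, with 1 call in acinar cells of 9 points. Acinar states were compared in the library labelled knockout alone. There 24.6% of all measured genes were called higher in S-high and 23.9% in G2M-high cells, with a median log2 ratio of 0.23 in both.

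**Figure D3:**
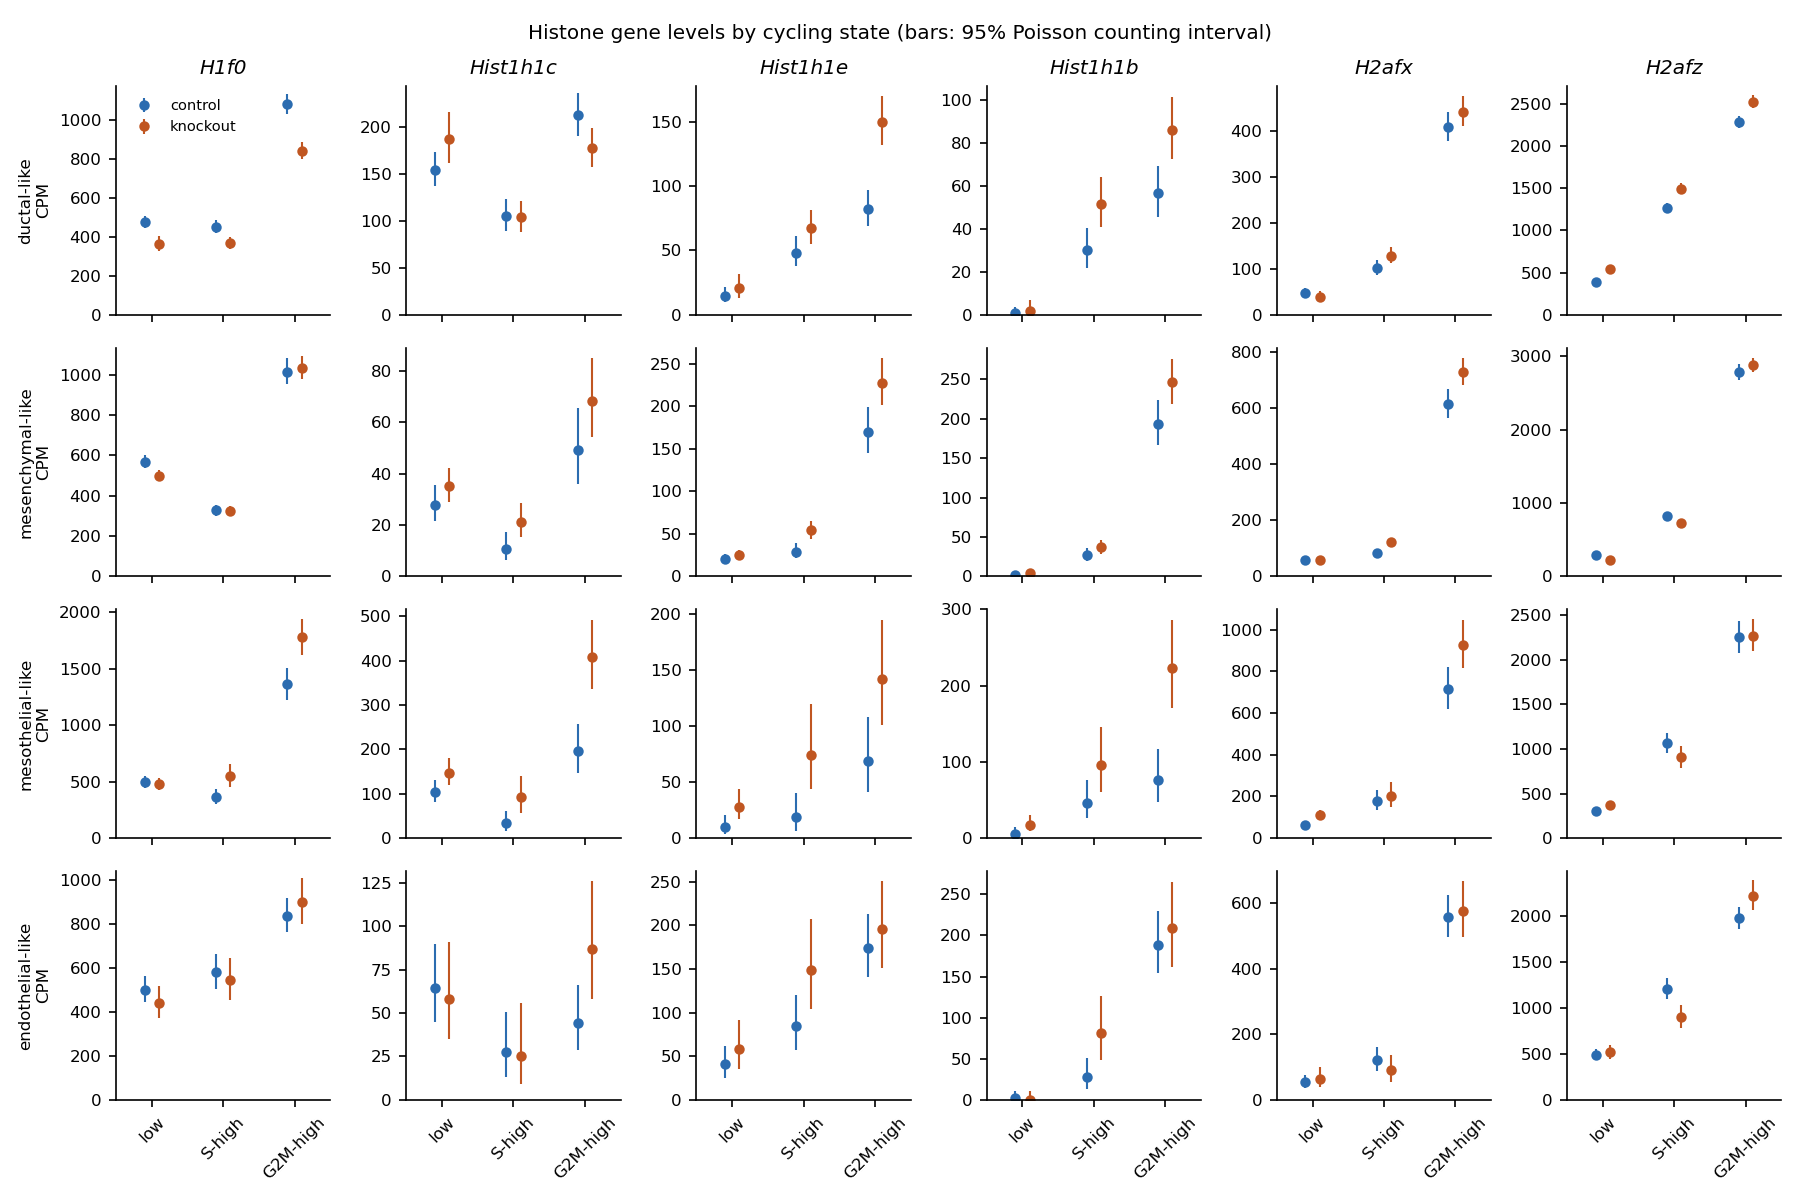
Level in CPM of 6 genes in low, S-high and G2M-high cells of 4 classes (rows), control library in blue and library labelled knockout in orange; bars are 95% Poisson counting intervals. From low to S-high cells H1f0 falls in mesenchyme and control mesothelium and is higher in endothelium (501 to 581 and 442 to 545 CPM) and in mesothelium of the library labelled knockout (477 to 548 CPM), and it is highest in G2M-high cells in all 4 classes, while H2afz climbs at each step; in ductal cells H1f0 of the library labelled knockout lies under the control in all 3 states (364 against 475, 370 against 453 and 843 against 1083 CPM).

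Other histone genes and the factors that handle histones were counted in the control library's ductal and mesenchymal cells. Of the replication-dependent core histone genes, 6 of 7 measured were called higher and none lower in G2M-high ductal cells (10.9% and 6.57% of all genes), with a median log2 ratio of 2.04 against 0.02 over all genes. In G2M-high mesenchyme 4 of 5 were called higher and none lower (16.2% and 9.62%). In S-high cells they were split, with 3 of 6 higher and 3 lower in ductal cells (7.43% and 5.55%) and 1 of 3 higher and 2 lower in mesenchyme (9.93% and 3.66%). Among histone chaperones and exchange factors, 7 of 32 measured were called higher and none lower in S-high ductal cells, and 12 of 35 higher and 1 lower in S-high mesenchyme, with median log2 ratios of 0.27 and 0.31 against -0.03 and 0.06 over all genes. In G2M-high cells the counts were 10 of 33 higher and 1 lower in ductal cells and 11 of 31 higher and 1 lower in mesenchyme.

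Between the libraries most values of the members stayed within 1.5-fold. Over 8 classes, 12 of 62 measured values were at least 1.5-fold higher in the library labelled knockout and 1 lower, against 9.62% and 5.17% of all measured genes. Within states the counts were 5 of 50 higher in low cells (background 13.1%), 5 of 27 in S-high cells (5%) and 6 of 32 in G2M-high cells (4.82%), with none lower (background 5.86%, 5.79% and 6.4%). The background in low cells differed between classes, from 3.65% in mesenchyme to 19.7% in endocrine and 34.1% in acinar cells, so the summed 13.1% depends on which classes are summed. Of the 12 higher values, 7 belonged to Hist1h1e and Hist1h1b.

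**Figure D4:**
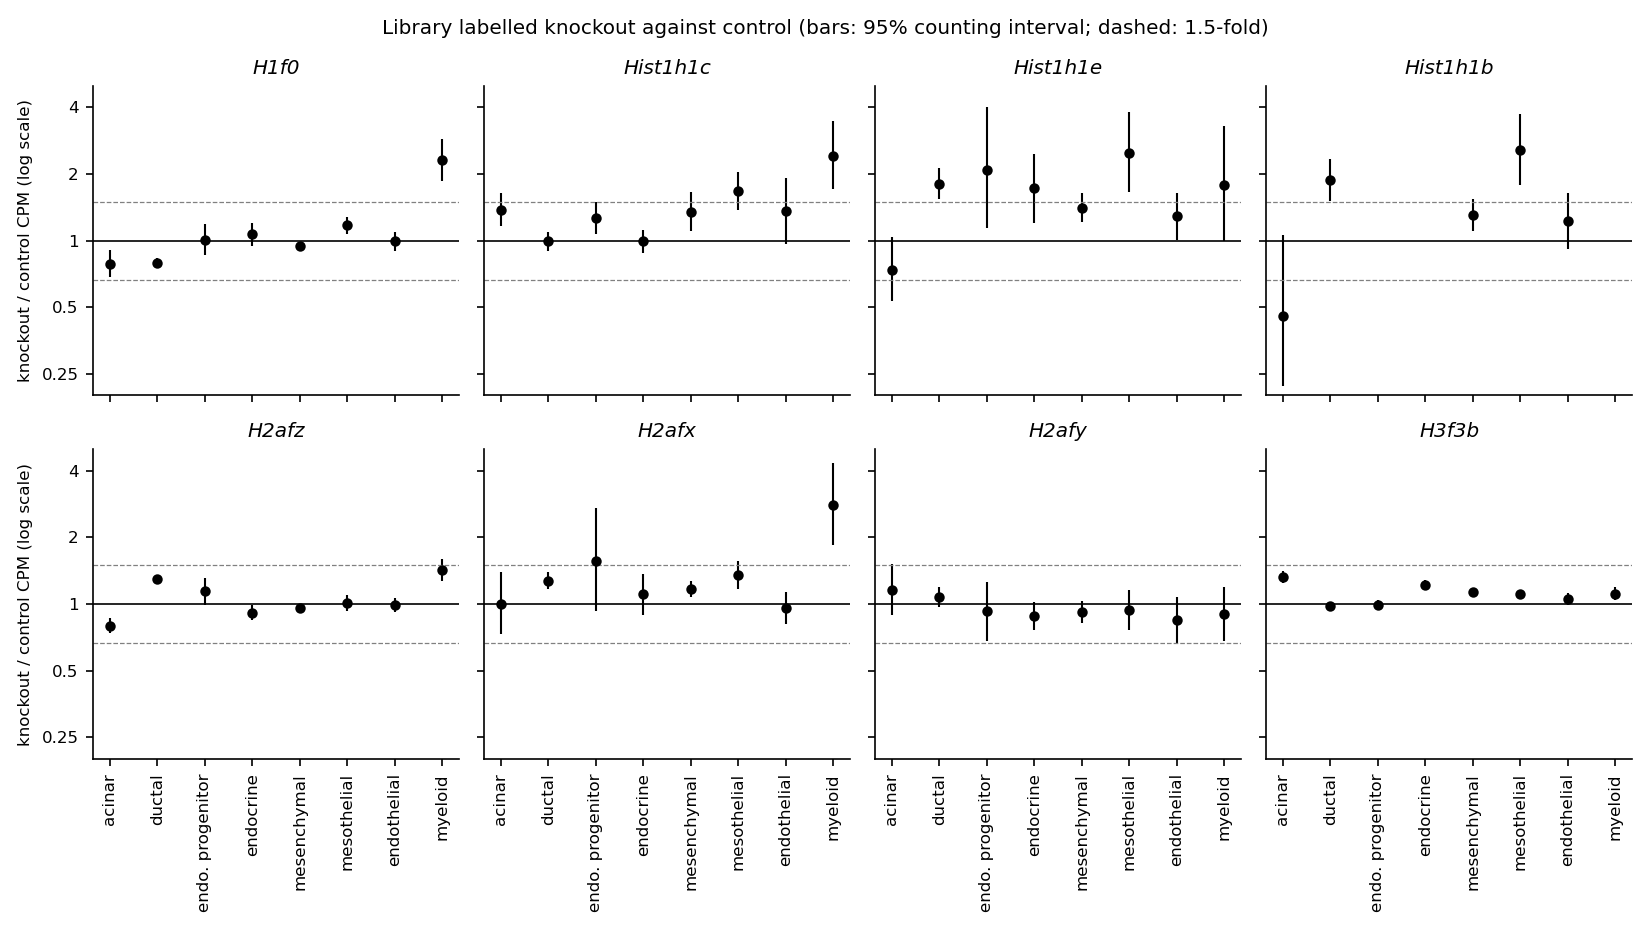
Ratio of CPM in the library labelled knockout over the control library (log scale) for 8 genes in 8 classes; bars are 95% counting intervals, dashed lines mark 1.5-fold, and a class without a point had under 50 UMIs. Hist1h1e lies above 1 in every class but acinar, at 0.735 with the cluster found in 1 library included. H2afy stays between 0.852 and 1.15 and H3f3b between 0.982 and 1.33.

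Hist1h1e was higher in the library labelled knockout in 7 of 8 classes and called in 5 of them. Its level was 42.5 against 77.0 CPM in ductal cells (ratio 1.81, interval 1.54 to 2.13), 22.4 against 55.7 CPM in mesothelium (2.49, 1.66 to 3.80), 21.6 against 37.4 CPM in endocrine cells (1.73, 1.20 to 2.47), 26.7 against 55.6 CPM in endocrine progenitors (2.08, 1.14 to 4.003) and 35.0 against 62.3 CPM in myeloid cells (1.78, 0.996 to 3.29). The last interval reached below 1. Mesenchymal and endothelial cells gave 1.41 (1.21 to 1.64) and 1.29 (1.01 to 1.64), and acinar cells 0.735 (0.532 to 1.04). In the acinar cluster that both libraries share, Hist1h1e was at 46.5 CPM (33.5 to 62.8) in the control library. In the other library it was at 61.5 CPM (52.6 to 71.3) there, with overlapping intervals. The acinar cluster found in the library labelled knockout alone had 23.0 CPM. Within states of the ductal class Hist1h1e was 1.37 in low (0.744 to 2.49), 1.40 in S-high (1.02 to 1.92) and 1.83 in G2M-high cells (1.47 to 2.27). The ductal clusters had unlike shares in the 2 libraries: 362 and 167 cells led by Spp1, 119 and 104 led by 1700011H14Rik, and 68 and 137 led by Gm37350. In the cluster led by Spp1, Hist1h1e was at 17.3 CPM (13.4 to 21.9) and 21.9 CPM (15.6 to 29.8), with overlapping intervals. The part of this mix in the ductal ratios was not tested. Hist1h2be, whose transcripts share the end of Hist1h1e, was at 4.67 and 8.12 CPM in ductal cells (ratio 1.74, 1.05 to 2.92) and, with 3 control UMIs, at 3.32 and 15.1 CPM in acinar cells (4.54, 1.52 to 22.3).

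Hist1h1b went with Hist1h1e in ductal cells, at 23.9 against 44.7 CPM (1.87, 1.51 to 2.33), and in mesothelium, at 27.3 against 70.3 CPM (2.57, 1.79 to 3.75). It was 1.31 (1.11 to 1.55) in mesenchyme and 1.22 (0.913 to 1.63) in endothelium. In acinar cells it was lower, at 9.96 against 4.54 CPM (0.456, 0.220 to 1.06), from 9 control UMIs. The acinar cluster that came from 1 library alone had 1.16 CPM. In the cluster that both libraries share Hist1h1b was at 9.96 and 12.8 CPM, under the minimum of 50 UMIs.

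The cycling share of ductal cells differed between the libraries, with 24.0% S-high and 22.6% G2M-high cells in the control and 29.7% and 25.2% in the library labelled knockout. With the 3 states given equal weight, the ductal ratio was 1.59 for Hist1h1b and 1.64 for Hist1h1e. Of the 39 S phase genes, 7 were called higher and none lower in ductal cells (median log2 ratio 0.36, against 0.03 over all genes). In ductal cells 2 of 8 measured members were called, both higher (3.87% of all genes higher, 3.83% lower). Core histone genes went with them: 6 of 16 measured were called higher and none lower, among them Hist4h4 (1.76, 1.05 to 2.98), with a median log2 ratio of 0.22.

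H1f0 differed the other way from Hist1h1b and Hist1h1e in the ductal class. Its control level of 643 CPM compared with 511 CPM, a ratio of 0.794 (0.755 to 0.835) that did not reach 1.5-fold. The ratio was 0.767 (0.678 to 0.866) in low, 0.816 (0.728 to 0.915) in S-high and 0.778 (0.725 to 0.835) in G2M-high cells, so the intervals lay under 1 in each state. All 3 ductal clusters had it lower. The levels were 470 against 393 CPM in the cluster led by Spp1 and 480 against 321 CPM in that led by Gm37350. In the cluster led by 1700011H14Rik they were 1039 against 797 CPM. H2afz moved the other way in ductal cells, at 1143 against 1488 CPM (1.30, 1.26 to 1.35), with 1.39 (1.25 to 1.56) in low, 1.18 (1.11 to 1.26) in S-high and 1.10 (1.06 to 1.15) in G2M-high cells. In ductal cells the 12 red cell markers summed to 5527 and 8639 CPM, all of them higher in the library labelled knockout, up to 2388 and 3887 CPM each and with 1 and 0 at 0. The 16 beta cell markers summed to 1203 and 298 CPM, 3 of them higher, up to 623 and 71.5 CPM each and with 2 and 6 at 0. The part of either list in the ductal differences was not tested. In mesenchyme H2afz was 0.955 (0.919 to 0.992) and H1f0 0.943 (0.899 to 0.988). Whether these differences exceed those between control embryos cannot be told from 1 library each.

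Mesothelial cells had 3 of 8 measured members called, Hist1h1b, Hist1h1e and Hist1h1c, all higher (4.18% of all genes higher, 6.31% lower). Hist1h1c was at 107 and 178 CPM (1.67, 1.37 to 2.04), with 1.41 (1.03 to 1.94) in low and 2.08 (1.49 to 2.94) in G2M-high cells. The difference was larger in a small cluster of 29 and 23 cells led by Dmkn. There Hist1h1c was at 86.9 and 300.4 CPM and Hist1h1b at 82.9 and 296 CPM. In the large cluster they were at 111 and 153 CPM and at 17.0 and 24.3 CPM. The core histone genes Hist3h2a (1.56), Hist1h4i (1.57) and Hist1h2bc (1.55) were also called, 3 of 6 measured. S phase genes did not share this: 7 of 25 were called lower and none higher, while 3 of 35 G2 and M phase genes were called higher and none lower. The 12 red cell markers summed to 9177 CPM in the control and 20719 CPM in the other library in these cells, 11 of them higher and between 0 and 9169 CPM each there, with 3 and 1 at 0. The 20 acinar markers summed to 466 and 1115 CPM there, 17 of them higher, up to 182 and 439 CPM each and with 5 and 1 at 0. The part of either list in the result was not tested.

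Myeloid cells had the most calls, 4 of 7 measured members and all higher (5.89% of all genes higher, 7.04% lower). H1f0 was at 230 CPM in the control and 531 CPM in the library labelled knockout (2.31, 1.87 to 2.87), H2afx at 58.4 and 163 CPM (2.80, 1.85 to 4.35), and Hist1h1c at 87.6 and 212 CPM (2.42, 1.71 to 3.47). H1f0 was higher in both myeloid clusters, at 248 and 522 CPM in the cluster led by Pf4 and C1qb and at 144 and 551 CPM in that led by S100a8. Among low cells alone (42 and 59) it was at 155 and 533 CPM, a ratio of 3.45 (2.36 to 5.18). H2afz, at 856 and 1220 CPM in all myeloid cells (1.42, 1.27 to 1.61), was 1.01 (0.797 to 1.28) in low cells. Of 16 measured G2 and M phase genes, 13 were called higher, with a median log2 ratio of 1.10, and G2M-high cells were 6 of the control and 16 of the other library. Among other variants Cenpa, the centromeric H3, was 3.31-fold higher (2.20 to 5.10). The 10 neutrophil markers summed to 3241 and 5300 CPM, between 0 and 3275 CPM each, with 2 at 0 in both libraries, and 3 of them were higher in the library labelled knockout. The 20 acinar markers summed to 584 and 1977 CPM, 19 of them higher, up to 220 and 763 CPM each and with 6 and 1 at 0. The 12 red cell markers summed to 592 and 1586 CPM, 6 of them higher, up to 362 and 792 CPM each and with 5 and 6 at 0. The part of these 3 lists in the result was not tested. Without the cluster led by S100a8, which held 20 and 43 cells, H1f0 was 2.11-fold, H2afx 2.08-fold and Hist1h1c 2.77-fold higher.

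In acinar cells 1 of 8 measured members was called, Hist1h1b lower, against 27.4% of all genes called higher and 6.01% lower. All genes had a median log2 ratio of 0.23 in this class, and S phase genes of -0.44, with 10 of 28 lower and 1 higher. H1f0 was 0.787 (0.685 to 0.907), H2afz 0.798 (0.738 to 0.864), Hist1h1c 1.38 (1.17 to 1.65) and H3f3b 1.33 (1.25 to 1.42). Without the cluster found in 1 library, these became 1.07, 1.05, 1.66 and 1.14. Median depth in the class was 6073 and 11563 UMIs.

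In endocrine cells Hist1h1e was the 1 call of 7 (18.8% of all genes higher, 4.14% lower, median log2 ratio 0.26). The Ins2 cluster held 181 of the control and 52 of the other cells, and the Gcg and Sst cluster 128 and 106. Hist1h1c was 0.995 (0.881 to 1.12), H2afy 0.885 (0.767 to 1.02) and H3f3b 1.22 (1.16 to 1.28). Endocrine progenitors had 2 of 7 called, Hist1h1e and H2afx (40.0 and 62.9 CPM; 1.57, 0.933 to 2.71), both higher (5.84% of all genes higher, 6.26% lower). Hist1h1c in progenitors was 1.26 (1.07 to 1.496) and H3f3b 0.991 (0.937 to 1.05). No member was called of 9 in mesenchyme (2.41% higher, 4.48% lower) and of 8 in endothelium (4.12% higher, 5.95% lower).

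H2afy was not called in any class or state between the libraries. Over all cells of a class its ratios ran from 0.852 (0.667 to 1.08) in endothelium to 1.15 (0.888 to 1.52) in acinar cells, with every interval of the 8 classes spanning 1. Within states the range was wider: 0.728 to 1.499 in low, 0.950 to 1.40 in S-high and 0.673 to 1.06 in G2M-high cells. The interval lay above 1 in 1 class of low cells and below 1 in 1 class of G2M-high cells. H3f3b was likewise not called, but its interval lay above 1 in 5 of the 8 classes.

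The authors' deposited table of cluster genes, which holds 2144 rows for 14 clusters, lists 6 of the 10 genes. Their cluster led by Cenpf, Prc1, Cks2 and Nusap1 lists H2afx at place 34, H1f0 at 45, Hist1h1b at 75 and Hist1h1e at 91 of 308 genes in the authors' deposited table. The cluster led by Mcm6, Pcna, Atad2 and Dek lists Hist1h1b in the authors' deposited table at place 177 of 267. The cluster led by Bfsp2 and Lef1 lists H2afz at place 64 and Hist1h1e at 161 of 233 in the authors' deposited table. Hist1h1c stands in the authors' deposited table in a cluster led by Ppp1r1a and Nnat, at place 150 of 233.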

How the data were processed

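Raw UMI counts per gene and barcode were deposited by the authors for 1 control library and 1 library labelled knockout; per the submitters' processing notes Cell Ranger and Seurat (versions 2 and 3) were used, with builds GRCm38 and mm10, and per the file headers the matrices carry software version 3.0.0. The authors' deposited table also gives p-values and a fold-change score of unstated log base per cluster; only its gene names and their order were used. The members and gene lists were chosen with earlier results of these data known. All 10 members are named; from each other list, the 2 genes of highest UMI total and the 2 whose ratio lay furthest from 1 could be named. For each member the 3 most correlated genes of at least 20 CPM were named.

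Cells with under 500 genes (1290 and 1465), over 10% mitochondrial UMIs (63 and 57) or a Scrublet doublet call (26 and 29) were left out. Clustering used 2000 variable genes, 30 components, 15 neighbours and Leiden resolution 1 (scanpy 1.11.5, leidenalg 0.10.2), without histone, cell cycle, enzyme, hormone, haemoglobin, mitochondrial, ribosomal and sex-linked genes; a cluster took a name with at least 3 markers in its top 50 genes, and 10 and 91 cells stayed unnamed. UMIs were summed per class, state and library and divided by the total. Ratios carry exact conditional binomial 95% intervals, levels exact Poisson intervals (SciPy 1.17.1). A gene was measured with at least 50 UMIs over both sides and called at 1.5-fold or more; classes needed 50 cells in both libraries and states 20. A group at 0 was set to a floor of 3 counts. The calls were tried on simulated counts with counting error only and changes well past the cut. That does not test calls near 1.5-fold, genes near 50 UMIs or differences between embryos. Alternatives changed cell filters, clustering, denominator, UMI minimum, thinning and state cut-offs.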

Additional observations from a re-analysis of the deposited data

Results flagged for a closer look

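Hist1h1b differed in direction between classes in the comparison of the library labelled knockout with the control: its ratio was 0.456 in acinar cells, 1.87 in ductal cells and 2.57 in mesothelial cells. The difference between classes was not tested, since each group is 1 library, and the acinar value rests on 9 control UMIs, with an interval of 0.220 to 1.06 that spans 1. In the acinar cluster that both libraries share, Hist1h1b was at 9.96 CPM in the control and 12.8 CPM in the library labelled knockout. The acinar cluster found in the library labelled knockout alone had 1.16 CPM.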

How the results depend on the processing

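No paired analysis was possible because each group is 1 library. Of the counts of members past 1.5-fold recomputed under the alternatives, 132 stayed within 1.5 times the main count and 25 did not. Between the libraries, endocrine progenitors went from 2 calls to 1 (at least 1000 genes, at most 5% mitochondrial UMIs, or doublets kept) and 0 (cycling genes kept in clustering, at least 200 UMIs, or thinned cells). Mesenchyme went from 0 to 1 with at least 1000 genes or at most 5% mitochondrial UMIs. Acinar cells went from 1 to 2 with a total free of enzyme, hormone, haemoglobin, mitochondrial and ribosomal genes, 4 with per-cell means, 0 with at least 200 UMIs and 3 with thinned cells. Endocrine cells went from 1 to 0 (reduced total, at least 200 UMIs, or thinned cells) and 2 (at least 20 UMIs). Mesothelium went from 3 to 1 (at least 200 UMIs, or thinned cells), myeloid cells from 4 to 1 (at least 200 UMIs) and 2 (thinned cells), ductal cells from 2 to 1 and endothelium from 0 to 1 (thinned cells). With at least 200 UMIs fewer genes are tested: S-high calls went from 16 to 9 and from 22 to 10, and G2M-high calls in the control from 22 to 14. The cause of the other changes was not tested. The reduced total moved the median log2 ratio of all genes from 0.23 to 0.07 in acinar and from 0.26 to 0.05 in endocrine cells. H2afy in S-high mesothelial cells of the library labelled knockout fell below 1, to 0.887, with at most 5% mitochondrial UMIs. H1f0 in ductal cells stayed between 0.754 and 0.809 under 13 alternatives, and Hist1h1e between 1.60 and 1.83. Hist1h1b in ductal cells ranged more widely, from 1.33 to 1.97, and was called in 12 of the 13. The equal weighting of states and the myeloid class without 1 cluster were chosen after seeing the data. Counts of Hist1h1a and Hist1h1d were too few for most ratios.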
